A study of Mus musculus with 12 samples.

Results

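The complement genes described here encode components of the classical, lectin, alternative and terminal pathways together with the receptors and regulators of the cascade. They were chosen by name from the deposited count table, with no threshold on their values, though earlier results of these data were known. Of the 34 names, 33 had a row among the 47480 gene symbols of that table. The name C1s had no row, and its mouse counterpart C1s1 did. RNA had been sequenced from trigeminal nerve, the nerve of facial sensation, in 12 mouse libraries. The 6 normal nerve libraries came from Nf1 flox/flox PostnCre- mice and the 6 plexiform neurofibroma libraries from Nf1 flox/flox PostnCre+ mice, so all animals carried the floxed Nf1 alleles. Only the tumour group carried Cre, named for Postn, so the effects of Cre and of the tumour cannot be told apart. The labels give no strain, age, sex or litter, and they do not say that each library came from a separate animal. The tests can thus only weigh differences against the spread among these libraries, which may be technical in part.

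Complement is a cascade of secreted proteins that tags cells and debris and recruits phagocytes. The classical pathway starts when C1q, with the proteases C1r and C1s, binds a surface and cleaves C4 and C2; the lectin pathway does so through sugar-binding proteins and MASP proteases, and the alternative pathway through C3, factor B, factor D and properdin. All of them meet at C3 and can end in the terminal pore, while soluble and membrane-bound inhibitors protect host cells and receptors on leukocytes read the cleaved fragments. The liver makes most of the circulating proteins, but macrophages are a main source of C1q, and fibroblasts and endothelium can make several other components.

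Total estimated counts ran from 14160025 to 19989351 per library. Nf1, the floxed gene, stood at 85.5 to 173.2 CPM (counts scaled to a common library size) in normal nerve and at 69.6 to 93.1 CPM in neurofibroma, and the groups overlapped. Schwann cell markers summed to between 4622.1 and 17914.6 CPM in the 12 libraries, so markers of the labelled nerve were present in each. Sensory neuron markers summed to 8926.6 to 16960.7 CPM in normal nerve and 10940.5 to 14094.2 CPM in neurofibroma, so neuronal transcripts were abundant too. Whether the tissue held cell bodies of neurons was not tested. A few libraries stood apart. Normal nerve replicate 2 had the lowest macrophage, fibroblast and Schwann cell marker sums of all 12. Normal nerve replicate 6 carried central nervous system markers at 1565.4 CPM against at most 538.5 CPM elsewhere. Plexiform neurofibroma replicate 1 carried adipocyte markers at 738.8 CPM and skeletal muscle markers at 1727.4 CPM, against at most 28.6 and 418.6 CPM elsewhere. The part of these markers in the results was not tested, and calls that change without those 3 libraries are given both ways.

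In neurofibroma 4 of the 8 classical pathway genes and the C3a receptor were higher, and 7 of the 8 regulators of the cascade did not pass the test. By edgeR's quasi-likelihood test at an adjusted p under 0.05, 6 of the 26 members with enough counts to test were higher in neurofibroma, namely C1ra, C1s1, C4a, C4b, C3ar1 and Serping1. That is 23.1% of the members tested, beside 10.0% of the 17236 genes tested. No member was called lower by edgeR, beside 8.63% of all genes; 3 were lower at an unadjusted p under 0.05 (Cd55, Masp1 and C1qbp). DESeq2 called 10 members higher and 2 lower, beside 12.3% and 10.5% of all genes it tested, and limma-voom called 10 higher and 3 lower, beside 16.6% and 15.7%. Without normal nerve replicate 6, edgeR called 10 members higher and 1 lower, beside 14.6% and 14.2% of all genes, and without the 3 libraries that stood apart it called 8 higher and 1 lower, beside 12.6% and 11.7%. With a correction for transcript length it called 5 higher and 1 lower, beside 8.6% and 6.53%. The other 7 rows, C6, C7, C9, Cfd, Vsig4, Fcna and Colec11, did not pass the filter on low counts and have no test in the filtered fit. Without the filter edgeR tested all 33 rows and called none of these 7, of which Cfd alone had an unadjusted p under 0.05; DESeq2, which gave an adjusted p for 27 members, called none of these 7.

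By role, 4 of the 8 classical pathway genes were called higher, with a median log2 fold change of 1.22, beside -0.02 over all genes tested. None of the 3 lectin pathway genes tested was called, with a median of -0.19; at an unadjusted p under 0.05 there was 1 (Masp1), which DESeq2 also called, and limma-voom called 2. None of the 3 tested genes of the group of C3 and the alternative pathway was called, with a median of 0.40; C3 alone had an unadjusted p under 0.05, and it alone was called by DESeq2 and none by limma-voom. The 1 terminal pathway gene that could be tested, C8g, had a log2 fold change of -0.06. Of 8 regulators 1 was called higher (12.5%), with a median of -0.12. Of 3 receptors tested 1 was called higher (33.3%), with a median of 0.35. Classical, alternative and terminal genes taken as 1 group gave 4 calls among 12 genes (33.3%). Their median was 1.06, with 11 of the 12 estimates above 0. Regulators and receptors taken as 1 group gave 2 calls among 11 genes (18.2%) and a median of 0.24, with 6 of the 11 estimates above 0. The difference between these 2 groups of genes was not tested.

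**Figure D1:**
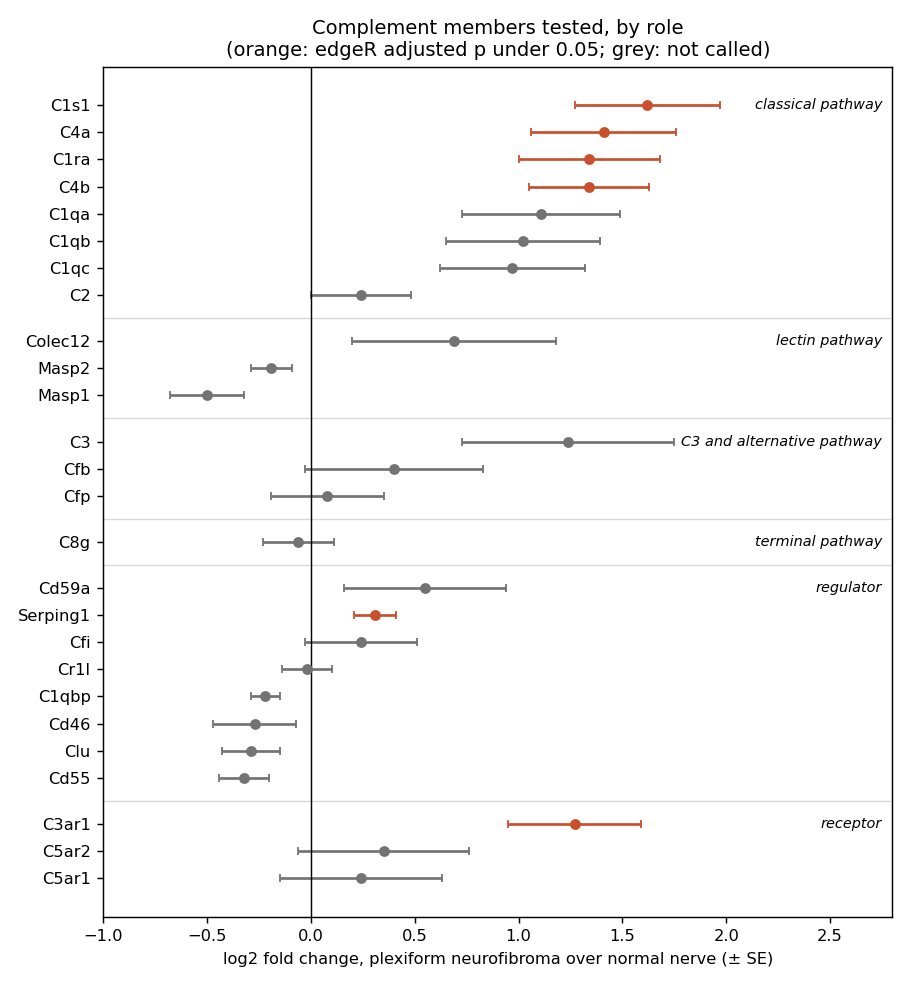
Log2 fold change of each tested complement gene, neurofibroma over normal nerve, ordered by role, with whiskers of 1 standard error from edgeR. Orange points are genes called at an adjusted p under 0.05, and grey points are genes not called. The 8 classical pathway genes all lie above 0, while 5 of the 8 regulators lie below it.

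The 3 chains of C1q, the recognition protein that opens the classical pathway, were about 2-fold more abundant in neurofibroma but missed the threshold. In normal nerve C1qa ranged from 7.63 to 38.1 CPM with a median of 19.2, and in neurofibroma from 23.2 to 59.5 CPM with a median of 43.6. The groups overlapped because normal nerve replicate 6 was at 38.1 CPM and neurofibroma replicate 3 at 23.2 CPM; 3 tumour libraries lay above all normal ones. The mean was 20.3 ± 11.7 CPM in normal nerve and 43.8 ± 14.7 CPM in neurofibroma (SD, 6 libraries each), a log2 fold change of 1.11 (SE 0.38) with an edgeR adjusted p of 0.0586. C1qb went from a median of 17.6 to 41.9 CPM and had a log2 fold change of 1.02 (SE 0.37, edgeR adjusted p 0.073). C1qc went from a median of 18.5 to 37.6 CPM and had a log2 fold change of 0.97 (SE 0.35, edgeR adjusted p 0.0685). The CPM ratios between the chains varied little between libraries: C1qb over C1qa was 0.888 to 1.05 in normal nerve and 0.821 to 0.988 in neurofibroma, and C1qc over C1qa was 0.882 to 1.25 and 0.796 to 0.962.

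The call of the C1q chains turned on the setting. Without normal nerve replicate 6, the library with the high central nervous system markers, the log2 fold changes were 1.38, 1.29 and 1.18 for C1qa, C1qb and C1qc, and edgeR's adjusted p was 0.0185, 0.0225 and 0.0297. DESeq2 called the 3 chains on all 12 libraries, with adjusted p of 0.0115, 0.0197 and 0.0187, and so did limma-voom. Without the 3 libraries that stood apart, C1qa (adjusted p 0.0393) and C1qb (0.0495) were called by edgeR, and without neurofibroma replicate 3 alone C1qa (0.0452) and C1qc (0.0417) were. Without the filter on low counts edgeR's adjusted p was 0.128, 0.153 and 0.144 for the 3 chains.

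Macrophage markers moved with C1q. Of 16 such markers, edgeR called 5 higher (Csf1r, Aif1, Cx3cr1, Cd14 and Fcgr1) and 1 lower (Cd163). The complement members were left out of this list, but Itgam, a chain of complement receptor CR3, was kept in it. Over all genes tested the shares were 10.0% higher and 8.63% lower. The sum of the macrophage markers ran from 106.1 to 346.5 CPM in normal nerve and from 241.4 to 514.6 CPM in neurofibroma. No marker was at 0 in all libraries. In bulk tissue, more cells of a type and more RNA per cell cannot be told apart. As a ratio to that sum, C1qa was 0.38 higher in neurofibroma on the log2 scale, C1qb 0.31 higher and C1qc 0.18 higher. These differences did not pass a two-sided exact permutation test (all 924 assignments of 6 libraries to each group), with p of 0.0368, 0.0714 and 0.143 and adjusted p over the 3 chains of 0.107, 0.107 and 0.143. Without normal nerve replicate 6 the differences for C1qa and C1qb were 0.46 and 0.39, both with an adjusted exact p of 0.0325. C1qc did not pass there (adjusted exact p 0.104). Without the 3 libraries that stood apart no chain passed (adjusted exact p 0.0952, 0.0952 and 0.151 for C1qa, C1qb and C1qc). As a ratio to Csf1r alone, on all 12 libraries, no chain passed either (adjusted exact p 0.302, 0.302 and 0.409).

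**Figure D2:**
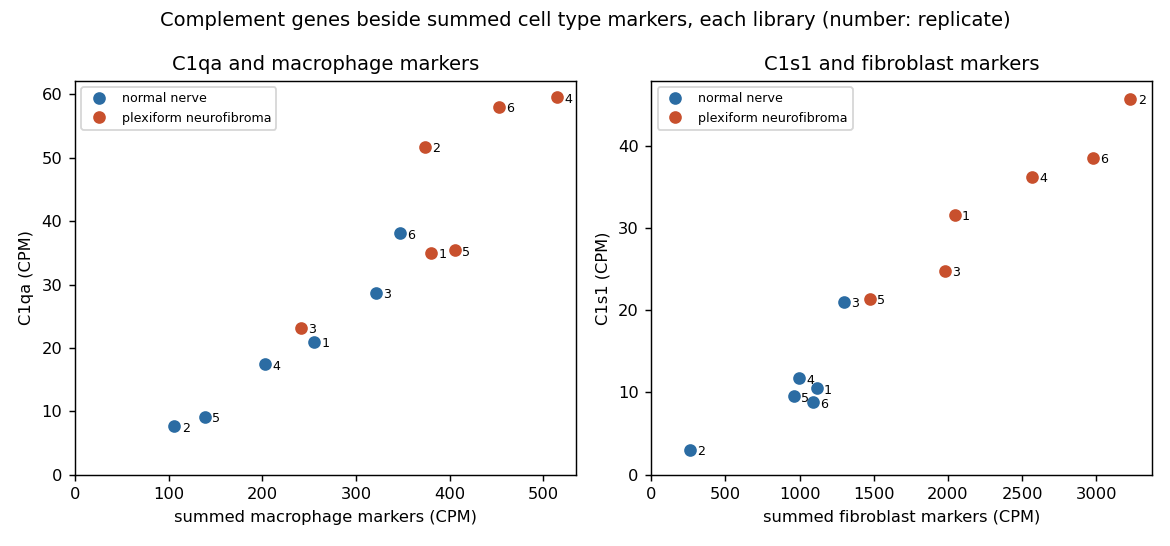
Left, C1qa against the summed macrophage markers; right, C1s1 against the summed fibroblast markers, each point 1 library in CPM with its replicate number. Macrophage sums of the groups overlap (at most 346.5 CPM in normal nerve, at least 241.4 CPM in neurofibroma), whereas fibroblast sums do not (at most 1296.2 against at least 1471.5 CPM).

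The C1q chain genes lie together on chromosome 4 within 18675 bases, all on the minus strand, in the order C1qb (chr4:136880129-136886187), C1qc (chr4:136889804-136893065) and C1qa (chr4:136895917-136898803). Sequence upstream of C1qb and C1qc is shown because these neighbouring genes kept a near-constant ratio over the libraries. The stretches are from RefSeq on GRCm38.p6, printed 5′ to 3′ on the minus strand, with matches to GAGGAA, a core bound by ETS factors such as PU.1 of macrophages, or to its reverse complement in capitals.
C1qb, chr4:136886201-136886450: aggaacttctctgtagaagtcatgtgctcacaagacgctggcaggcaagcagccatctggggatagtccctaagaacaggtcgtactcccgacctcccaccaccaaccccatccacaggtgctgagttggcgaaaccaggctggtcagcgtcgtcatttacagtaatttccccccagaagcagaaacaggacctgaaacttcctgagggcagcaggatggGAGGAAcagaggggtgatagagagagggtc
C1qc, chr4:136893066-136893164: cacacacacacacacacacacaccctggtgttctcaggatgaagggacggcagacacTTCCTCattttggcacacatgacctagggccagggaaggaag
The match lies 30 to 25 bases before the RefSeq start of C1qb, on its own strand, and 193 to 188 bases before that of C1qc, on the opposite strand. The C1qc stretch shown is 99 bases long, because bases of its 250-base window inside the annotated gene were left out. Its distance of 193 to 188 bases is counted from the RefSeq start, which lies inside that gene. The short core GAGGAA is common: 23.3% of 32851 whole promoter windows of 250 bases held it on either strand.

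C1ra and C1s1 encode C1r and C1s, the proteases that act with C1q, of which C1s cleaves C4 and C2. Both rose in neurofibroma, and C1s1 did so without overlap between the groups. In normal nerve C1s1 ranged from 3.05 to 21.0 CPM with a median of 10.0, and in neurofibroma from 21.4 to 45.7 CPM with a median of 33.9. Every tumour library thus lay above every normal one, as was so for 4.4% of all genes tested; the closest pair was normal nerve replicate 3 and neurofibroma replicate 5. The means were 10.8 ± 5.84 and 33.0 ± 9.01 CPM, a log2 fold change of 1.62 (SE 0.35, 3.07-fold, edgeR adjusted p 0.00937). C1ra ranged from 2.8 to 15.7 CPM in normal nerve (median 7.07) and from 11.9 to 25.8 CPM in neurofibroma (median 21.4). Its groups overlapped through normal nerve replicate 3, and 4 tumour libraries lay above all normal ones. The log2 fold change of C1ra was 1.34 (SE 0.34, 2.54-fold, edgeR adjusted p 0.018).

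The ratio of C1s1 to C1ra was 1.09 to 1.56 in normal nerve and 1.4 to 1.83 in neurofibroma. The genes are neighbours on chromosome 6 (C1ra at chr6:124512405-124523443 and C1s1 at chr6:124530345-124542359), with 6901 bases between them. Both were called in each of the 21 alternative settings, at adjusted p of at most 0.0449 for C1ra and 0.0257 for C1s1. Fibroblast markers moved with them: edgeR called 4 of 12 higher (Col1a1, Col1a2, Dcn and Lum), beside 10.0% of all genes. The fibroblast sum, 262.2 to 1296.2 CPM in normal nerve and 1471.5 to 3230.9 CPM in neurofibroma, did not overlap, with no marker at 0 throughout. Schwann cell markers moved too, with 5 of 12 called higher, beside the same share of all genes. The Schwann cell sums were 4622.1 to 11705.2 against 10257.7 to 17914.6 CPM. The part of either cell type in these results was not tested. The region before C1s1 is shown because C1s1 had the lowest adjusted p of the members; it held none of the 4 motifs searched, so no letter is in capitals (GRCm38.p6, minus strand).
C1s1, chr6:124542360-124542609: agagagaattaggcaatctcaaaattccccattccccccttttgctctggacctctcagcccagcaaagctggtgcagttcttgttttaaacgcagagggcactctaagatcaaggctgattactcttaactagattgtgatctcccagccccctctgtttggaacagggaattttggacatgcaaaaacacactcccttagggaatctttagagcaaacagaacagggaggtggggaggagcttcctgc

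C4, cleaved by C1s, is the next component of the classical pathway. Mice have 2 related gene copies, C4b and C4a, on chromosome 17 (C4b at chr17:34728380-34743882 and C4a at chr17:34809092-34823464, both on the GRCm38 annotation of GENCODE vM21, as are all gene positions here). RNA counts do not show whether the product of each copy is cleaved by C1s. In normal nerve C4b ranged from 52.4 to 127.2 CPM with a median of 62.4, and in neurofibroma from 115.2 to 285.3 CPM with a median of 177.3. Neurofibroma replicates 1 and 3 fell below normal nerve replicate 1, and the other 4 lay above all normal libraries. The log2 fold change of C4b was 1.34 (SE 0.29, 2.53-fold, edgeR adjusted p 0.00973). C4a, at 0.179 and 0.48 CPM per kilobase of transcript in the 2 groups beside 13.9 and 35.1 for C4b, went from 0.712 to 1.42 CPM in normal nerve and 0.915 to 4.54 CPM in neurofibroma, with 5 tumour libraries above all normal ones. Its log2 fold change was 1.41 (SE 0.35, 2.66-fold, edgeR adjusted p 0.0155).

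The 2 copies are near-identical, and C4b was 57.9 to 121.1 times C4a in normal nerve and 48.1 to 162.4 times in neurofibroma. Of the 31-base stretches of the C4a transcripts, 43.3% occur in C4b transcripts, so how the estimated counts split reads between the copies is uncertain. C1ra shares 56.9% of such stretches with C1rb and C1s1 33.5% with C1s2, but those copies held at most 2.01 and 5.72 counts in any library. C2, the remaining classical component and partner of C4 in the C3 convertase, was at 3.66 to 9.69 CPM in normal nerve and 5.49 to 10.3 CPM in neurofibroma. It overlapped almost fully between the groups and did not pass the test (log2 fold change 0.24, edgeR adjusted p 0.507). C2 lies 85 bases from Cfb, and an annotated read-through transcript covers both, so their counts may share reads.

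**Figure D3:**
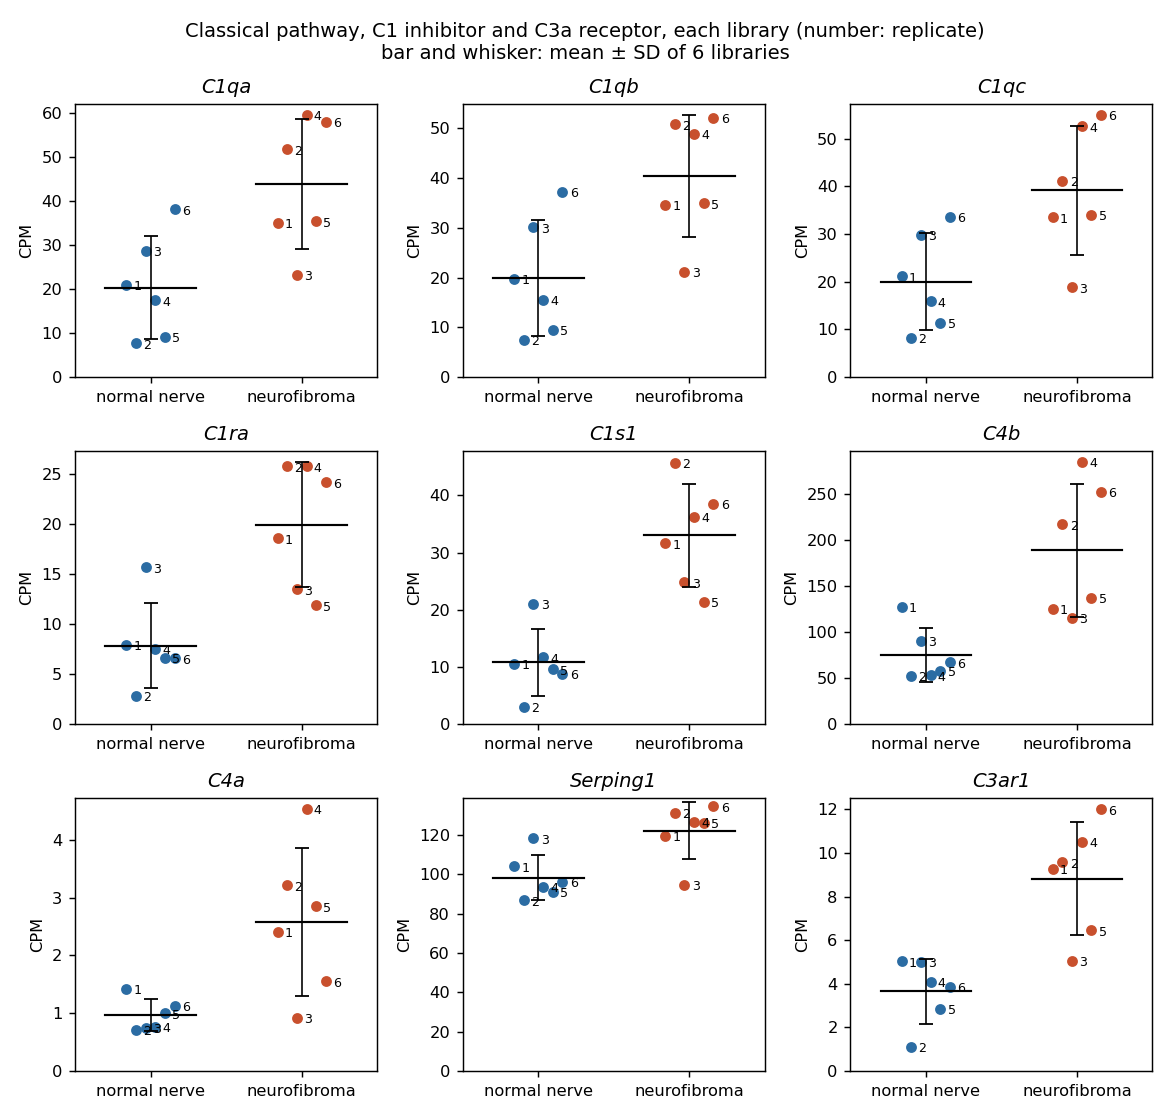
CPM of classical pathway genes, the regulator Serping1 and the receptor C3ar1 in each library, with replicate numbers and the mean ± SD of 6 libraries as bar and whiskers. C1s1 and C3ar1 show no overlap between normal nerve and neurofibroma, and the C1q chains overlap through normal nerve replicate 6 and neurofibroma replicate 3.

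C3, the component on which the pathways meet, was unevenly high among tumours. In normal nerve C3 ranged from 3.19 to 10.2 CPM with a median of 5.94, and in neurofibroma from 4.07 to 37.9 CPM with a median of 11.4. The high value was neurofibroma replicate 1; 3 tumour libraries, replicates 1, 4 and 6, lay above all normal ones and replicates 2, 3 and 5 did not. It had a log2 fold change of 1.24 (SE 0.51) with an edgeR adjusted p of 0.103, and DESeq2 called it with an adjusted p of 0.0391. Without neurofibroma replicate 1 the log2 fold change fell to 0.66 (adjusted p 0.26), and without the 3 libraries that stood apart to 0.35 (adjusted p 0.535).

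The same tumour library was highest for Cfd and Cfb of the alternative pathway and lowest among tumours for Cfp. Cfd, which encodes factor D (adipsin), a protease that adipocytes secrete in quantity, was at 267.0 CPM in neurofibroma replicate 1 and at most 1.37 CPM in the other 11 libraries; 5212 of its 5263 counts came from that library. Cfb, which encodes factor B, was at 5.89 CPM there and at 0.466 to 2.59 CPM elsewhere, and its log2 fold change of 0.40 (edgeR adjusted p 0.534) was -0.11 without it. The adipocyte marker sum was 738.8 CPM in that library and 8.19 to 28.6 CPM in the others, with no marker at 0 throughout; the part of adipocytes in these values was not tested. Cfp, encoding properdin, which stabilises the alternative convertase, ranged from 2.43 to 6.84 CPM in normal nerve and 3.18 to 7.68 CPM in neurofibroma, where replicate 1 was the lowest, and the groups overlapped (log2 fold change 0.08, edgeR adjusted p 0.854).

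**Figure D4:**
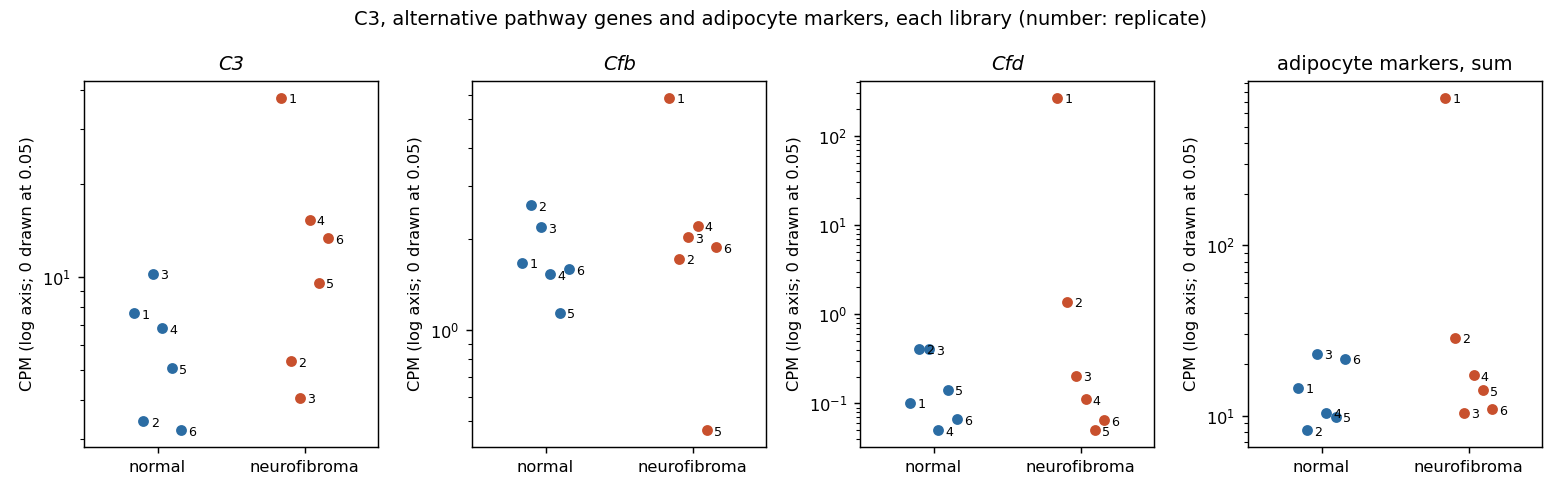
CPM of C3, Cfb, Cfd and the summed adipocyte markers in each library, on log axes with 0 drawn at 0.05. Neurofibroma replicate 1 is the highest point in all 4 panels, at 37.9 CPM for C3 and 267.0 CPM for Cfd.

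Of the 5 lectin pathway genes, 3 could be tested and 2 did not pass the filter on low counts. The collectin and ficolin genes Colec11 and Fcna, whose proteins recognise sugars on microbes and dying cells, had at most 11 and 15 counts in any library. Masp1, a lectin pathway protease, ranged from 2.44 to 4.68 CPM in normal nerve and 2.05 to 3.14 CPM in neurofibroma, with overlap, at a log2 fold change of -0.50 (SE 0.18, edgeR adjusted p 0.0615). DESeq2 (adjusted p 0.0459) and limma-voom (0.0315) called Masp1 lower, as did edgeR without normal nerve replicate 1 (-0.59, adjusted p 0.0251). Masp2, the protease that cleaves C4 and C2 in this pathway, was at 12.2 to 16.1 against 11.1 to 15.2 CPM and did not pass the test (log2 fold change -0.19, edgeR adjusted p 0.201). Masp2 overlaps Tardbp on the opposite strand, and Masp1 overlaps Rtp4; whether counting used strand is not given in the sources used here, so reads of such pairs may not be told apart.

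Colec12, a membrane collectin that acts as a scavenger receptor, ranged from 2.44 to 42.0 CPM in normal nerve and from 16.2 to 34.5 CPM in neurofibroma. Normal nerve replicate 6 was above every tumour, and normal nerve replicate 2 was the lowest library. Its log2 fold change stood at 0.69 (SE 0.49, edgeR adjusted p 0.336). Without normal nerve replicate 6 it was 1.25 with an adjusted p of 0.042, limma-voom gave 1.18 with an adjusted p of 0.032, and edgeR without the 3 libraries that stood apart gave 0.89 with an adjusted p of 0.0349.

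Terminal components, which build the membrane pore, were barely detected. C6 had 9 counts over the 12 libraries, C9 had 18 and C7 had 68. C8g, the gamma chain of C8, was at 1.07 to 1.53 CPM in normal nerve and 1.02 to 1.27 CPM in neurofibroma, with overlap and no call (log2 fold change -0.06, edgeR adjusted p 0.857). C8g overlaps Fbxw5, so part of its counts may belong to that gene. Among 7 hepatocyte markers, 6 stayed under 1 CPM in every library (Alb, Apoa1, Apob, Fgb, Serpina1a and Ahsg), and the sum of all 7 was at most 1.53 CPM.

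Among receptors, C3ar1, which binds the C3a fragment, lies at chr6:122847138-122856161 and is found on macrophages and other myeloid cells, rose without overlap. In normal nerve it ranged from 1.12 to 5.02 CPM with a median of 3.98, and in neurofibroma from 5.04 to 12.0 CPM with a median of 9.42. Neurofibroma replicate 3 was only just above normal nerve replicates 1 and 3, and the other tumours were well apart. This gave a log2 fold change of 1.27 (SE 0.32, 2.41-fold, edgeR adjusted p 0.0169), and C3ar1 was called in each of the 21 alternative settings at adjusted p of at most 0.0417. The macrophage marker sums given above moved with it, and their part was not tested. Sequence before C3ar1, the other member whose groups did not overlap, held none of the 4 motifs searched (GRCm38.p6, minus strand).
C3ar1, chr6:122856162-122856407: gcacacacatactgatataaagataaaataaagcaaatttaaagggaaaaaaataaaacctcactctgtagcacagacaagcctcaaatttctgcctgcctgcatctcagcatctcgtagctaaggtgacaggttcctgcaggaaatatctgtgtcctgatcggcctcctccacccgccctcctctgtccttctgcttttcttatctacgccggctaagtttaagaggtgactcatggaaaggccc

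The receptors of C5a, encoded by C5ar1 and C5ar2, were low and did not pass the test. C5ar1 was at 0.559 to 2.44 CPM in normal nerve and 0.915 to 4.12 CPM in neurofibroma (log2 fold change 0.24, SE 0.39, edgeR adjusted p 0.69), and leaving out neurofibroma replicate 2, its highest library, gave -0.069. C5ar2 was at 0.214 to 0.964 and 0.254 to 1.16 CPM (log2 fold change 0.35, SE 0.41, edgeR adjusted p 0.57). Vsig4, a C3b receptor of resident macrophages in some tissues, had 1 count in all 12 libraries together.

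The 4 most abundant members, with levels taken per kilobase of the longest annotated transcript, were regulators in both groups. Clu, which encodes clusterin, a chaperone that blocks the terminal complex, led at 201.8 CPM per kilobase in normal nerve and 165.6 in neurofibroma. Cd55 followed at 102.3 and 82.0, then Serping1 at 55.6 and 69.1 and Cd59a at 48.8 and 71.3, and the last 2 differed by less than the spread of Cd59a between libraries. By comparison C1qa was at 19.5 and 42.1 CPM per kilobase, C4b at 13.9 and 35.1 and C1s1 at 3.66 and 11.2.

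Serping1, which encodes the C1 inhibitor that inactivates C1r and C1s, was the 1 regulator called higher, by a small amount. It ranged from 86.8 to 118.2 CPM in normal nerve with a median of 94.8, and from 94.7 to 134.5 CPM in neurofibroma with a median of 126.4. Neurofibroma replicate 3 lay within the normal range and the other 5 tumours lay above it. Serping1 lies on chromosome 2 (84765387 to 84775444). It had a log2 fold change of 0.31 (SE 0.10, 1.24-fold, edgeR adjusted p 0.0384). The call was lost in 11 of the 21 alternative settings, among them a correction for transcript length (adjusted p 0.126), the test without the filter on low counts (0.0594), and the test without the 3 libraries that stood apart (0.105). The libraries whose removal ended it were normal nerve replicates 2, 4 and 5 and neurofibroma replicates 1, 2, 4, 5 and 6, one at a time.

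Membrane inhibitors did not pass the test in either direction. Cd55 encodes decay-accelerating factor, which dissociates C3 convertases. It ranged from 250.2 to 401.1 CPM in normal nerve (median 327.8) and from 222.3 to 306.6 CPM in neurofibroma (median 253.8), and no tumour lay above all normals. Its log2 fold change stood at -0.32 (SE 0.12, edgeR adjusted p 0.073). It passed the test at -0.38 (adjusted p 0.0176) without normal nerve replicate 6, at -0.38 (0.0474) without neurofibroma replicate 5, at -0.32 (0.0486) without the 3 libraries that stood apart, and with limma-voom (0.024). Cd46 encodes membrane cofactor protein, which helps factor I cleave C3b, and was at 12.3 to 29.0 CPM in normal nerve and at most 16.6 CPM in neurofibroma (log2 fold change -0.27, edgeR adjusted p 0.347). Its highest value was normal nerve replicate 6, and the estimate was 0.04 without the 3 libraries that stood apart. Cr1l, the rodent regulator Crry, was at 25.4 to 38.0 CPM in normal nerve and 25.6 to 35.9 CPM in neurofibroma, with a log2 fold change of -0.02 (SE 0.12, edgeR adjusted p 0.916).

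Cd59a, which blocks assembly of the terminal pore, was the regulator with the widest spread among tumours. It ranged from 63.0 to 129.2 CPM in normal nerve and from 42.6 to 238.4 CPM in neurofibroma, where replicates 1, 4 and 5 were above every normal library and replicates 2 and 6 below every one. This gave a log2 fold change of 0.55 (SE 0.39, edgeR adjusted p 0.341). Clu ranged from 297.3 to 546.0 CPM in normal nerve, with replicate 6 highest, and from 272.0 to 342.3 CPM in neurofibroma (log2 fold change -0.29, SE 0.14, edgeR adjusted p 0.163).

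C1qbp encodes a C1q-binding protein that resides mainly in mitochondria. It was at 41.1 to 53.4 CPM in normal nerve and 38.2 to 44.0 CPM in neurofibroma, with overlap through normal nerve replicates 1 and 5. Its log2 fold change of -0.22 (SE 0.07) missed the threshold by edgeR on all 12 libraries (adjusted p 0.0574) and passed it by DESeq2 (0.0376) and limma-voom (0.0365). It was also called lower by edgeR with the length correction (-0.29, adjusted p 0.0182) and without normal nerve replicate 1 (-0.26, 0.0268). Cfi, encoding the soluble protease factor I, was at 0.398 to 1.44 and 0.859 to 1.55 CPM and did not pass the test (log2 fold change 0.24, edgeR adjusted p 0.569).

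**Figure D5:**
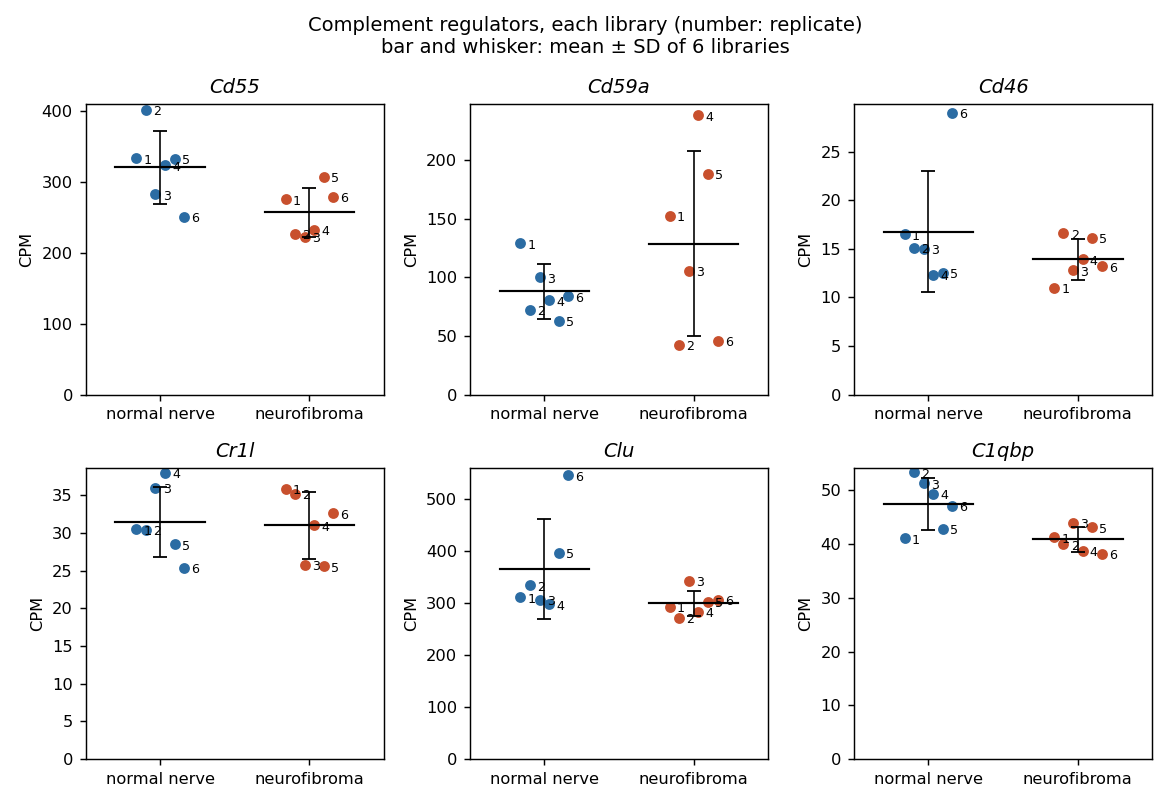
CPM of 6 regulators in each library, with replicate numbers and the mean ± SD of 6 libraries as bar and whiskers. Cd59a runs from 42.6 to 238.4 CPM among tumours, and the highest Cd46 and Clu values are both normal nerve replicate 6.

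A list of 30 further genes of the pathway gave 5 calls among the 15 that could be tested, 2 higher (13.3%, beside 10.0% of all genes) and 3 lower (beside 8.63%), with a median log2 fold change of 0.04. C1rl, a relative of C1r, had means of 0.508 ± 0.151 and 1.19 ± 0.408 CPM, a log2 fold change of 1.22 (SE 0.29, edgeR adjusted p 0.0139) with no overlap. Ptx3, which encodes a pentraxin that binds C1q, was at 0.348 to 1.21 CPM in normal nerve and 1.05 to 5.44 CPM in neurofibroma, and the single overlap was neurofibroma replicate 5. Its log2 fold change was 2.19 (SE 0.39, 4.56-fold, edgeR adjusted p 0.00391). Lower were 3 membrane proteins with complement-control domains made largely by neurons: Susd4 (log2 fold change -0.32, edgeR adjusted p 0.0371), Csmd2 (-0.52, 0.00954) and Csmd3 (-0.79, 0.022). Csmd1, of the same family, had means of 60.1 and 61.9 CPM and did not pass the test (log2 fold change 0.04, edgeR adjusted p 0.827). The correction for transcript length ended the calls of Csmd2 (-0.33, 0.104) and Csmd3 (-0.61, 0.0778), that of Csmd3 was also lost without neurofibroma replicate 2 (0.052), and that of Susd4 was lost without the 3 libraries that stood apart (-0.20, 0.136), without the filter (0.0554), and without any one of normal nerve replicates 2 and 5 and neurofibroma replicates 1, 2, 4 and 6. Sensory neuron markers, beside these neuronal genes, had sums of 8926.6 to 16960.7 CPM in normal nerve (median 14139.6) and 10940.5 to 14094.2 CPM in neurofibroma (median 11783.6). Of these 12 markers edgeR called 0 higher and 0 lower. The part of neurons in these calls was not tested.

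Promoter windows of 250 bases before the start were held for 23 of the 33 members, with 26 start sites in all, and 4 motifs were searched on both strands. The interferon-stimulated element, GAAA followed by any 2 bases and GAAA again, was found at 2 sites (Cd59a and Colec11), beside 2.98% of all windows. TTCNNNGAA, the STAT element, was found at 3 (Masp2, Colec11 and C7), beside 7.02%. GAGGAA was found at 6 (C1qb, C1qc, Cd59a, C5ar2, Fcna and Vsig4), and TTGCGCAA, the C/EBP palindrome, at 0, beside 0.164%. In Colec11 the first pair of motifs overlap. Of 16 interferon and STAT response genes, edgeR called 7 higher (43.8%, beside 10.0% of all genes), with a median log2 fold change of 1.26. The sums of these response genes were 366.3 to 698.1 CPM in normal nerve and 638.6 to 1139.5 CPM in neurofibroma. Of the members with an interferon or STAT motif, Cd59a and Masp2 were tested and not called, and Colec11 and C7 did not pass the filter on low counts. C4a, C4b and Serping1, which were called higher, had no promoter window and were not searched. The motif search thus cannot show whether the members called higher carry these motifs more or less often. A link between the response genes and the members was not tested.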

How the data were processed

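RNA was sequenced from 6 normal trigeminal nerve and 6 plexiform neurofibroma libraries, 1 deposited table in all. The authors deposited estimated counts per gene symbol, not normalized; the submitters' processing notes name the build mm10 and the tools STAR 2.4.2a, Salmon 0.60, FastQC and DESeq2, with no role or order. Per the labels' protocols RNA was polyA-selected; 2 library kits are named, so whether libraries kept strand is uncertain. From 84.1% to 86.5% of a library's values were whole within 0.001. Counts were rounded to whole numbers here. Estimation shares reads among near-identical genes, which limits C4a against C4b.

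Of 47480 symbols, 45187 matched GENCODE vM21 on GRCm38 directly and 620 by an older symbol; transcript lengths come from it and promoters from RefSeq (GRCm38.p6). After filterByExpr, 17236 genes were tested in edgeR 4.0.16 by quasi-likelihood (R 4.3.3, TMM, robust, no covariate), neurofibroma over normal nerve. Adjusted p-values are Benjamini-Hochberg over all of them, and genes were called under 0.05. CPM uses TMM-scaled library sizes. Simulated counts of 6 against 6 libraries covered 17062 genes. In them 67 genes were changed 1.5-fold, 66 2-fold and 66 4-fold, all drawn from genes with a mean of at least 1 CPM. The test recovered 34.3% of 1.5-fold, 66.7% of 2-fold and 92.4% of 4-fold changes, and 3.76% of calls were false. Far fewer genes were changed there than were called here, so these shares may not hold for the real counts or for genes under 1 CPM.

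Alternatives were no filter on low counts, a cut at 1 CPM, upper-quartile or RLE scaling, a length correction, DESeq2 1.42.0, limma-voom (limma 3.58.1) and each library left out; a covariate for sex-linked transcripts and the removal of 3 libraries were chosen after seeing the data. Every member is accounted for; further pathway genes are named where called, and a few others after their values were seen. One further pathway gene is not reported here. The members and lists were chosen with earlier results of these data known. Marker lists not mentioned in the results gave the following sums. Endothelial and pericyte markers summed to 211.3 to 405.3 CPM in normal nerve and 226.4 to 489.0 CPM in neurofibroma, neutrophil markers to 1.14 to 13.2 and 2.64 to 14.7 CPM, mast cell markers to 58.7 to 83.8 and 49.8 to 80.7 CPM, and lymphocyte markers to 1.67 to 7.77 and 2.74 to 5.95 CPM.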

Additional observations from a re-analysis of the deposited data

Results flagged for a closer look

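Of 60 groups of 6 libraries checked, 9 held a library at one end whose gap to the nearest other, as a share of the group's range, exceeded Dixon's critical value; chance flags about 1 in 20 groups. In neurofibroma replicate 1, C3 was at 37.9 CPM (next highest tumour 15.3), Cfb at 5.89 CPM (next 2.22) and Cfd at 267.0 CPM (next 1.37), in the library with adipocyte markers at 738.8 CPM. The same library was highest among tumours for Fcna (0.307 CPM) and Colec11 (0.307 CPM), both from few counts. Serping1 was lowest among tumours in neurofibroma replicate 3, at 94.7 CPM (next lowest 119.6). In normal nerve replicate 6, the library with central nervous system markers at 1565.4 CPM, Cd46 was at 29.0 CPM (next 16.5) and Fcna at 0.996 CPM (next 0.153). Colec11 was at 0.633 CPM in normal nerve replicate 3 (next 0.203).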

How the results depend on the processing

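No paired analysis was possible because the labels give no replicate numbers shared between the groups. The number of members called higher, 6, was 10 with DESeq2 and 10 with limma-voom, and 5 to 10 when 1 library was left out, the 10 being without normal nerve replicate 6. The number called lower, 0, was 1 with the length correction, 2 with DESeq2, 3 with limma-voom, 1 without the 3 libraries that stood apart, and 0 to 2 with 1 library left out (2 without normal nerve replicate 1, 1 without normal nerve replicate 6 and 1 without neurofibroma replicate 5). Over all genes, limma-voom called 2864 higher and 2701 lower, the test without the filter called 902 lower, and leaving out 1 library gave 1092 to 2544 higher and 801 to 2487 lower. Of the further genes, 3 were called with the length correction and 3 to 7 with 1 library left out, the 3 being without neurofibroma replicate 2. The log2 ratio to macrophage markers ran from 0.31 to 0.46 for C1qa and 0.22 to 0.39 for C1qb with 1 library left out; both passed without normal nerve replicate 6. Estimates near 0 changed sign: C5ar1 (-0.069 without neurofibroma replicate 2, in a range of -0.069 to 0.40 with 1 library left out), C8g (range -0.097 to 0.0023; 0.0023 without normal nerve replicate 6 and 0.009 without the 3 libraries), Cfb (-0.11 without neurofibroma replicate 1, range -0.11 to 0.62), Cfp (-0.0071 with the length correction, -0.034 without normal nerve replicate 4 and -0.12 without neurofibroma replicate 2, range -0.12 to 0.25), Cd46 (0.04 without the 3 libraries) and Cr1l (0.0037 with the length correction, 0.025 and 0.043 without normal nerve replicates 3 and 4, 0.027 and 0.029 without neurofibroma replicates 3 and 5, range -0.074 to 0.043). The cause was not tested. C1ra, C1s1, C4a, C4b and C3ar1 were called in all 21 alternatives. Depth limits 6 of the 7 members under the filter, for which no difference was detectable; the other, Cfd, had counts almost wholly in 1 library.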

Other observations

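Vitronectin and the integrin receptors of C3 fragments were measured beside the members, chosen for mention after their values were seen. Vtn, which encodes vitronectin, an inhibitor of the terminal complex, was at 148.2 CPM in normal nerve replicate 6 and at most 25.1 CPM elsewhere. Itgb2, the shared beta chain of complement receptors CR3 and CR4, had means of 3.75 ± 1.85 and 6.43 ± 1.79 CPM (log2 fold change 0.77, SE 0.30, edgeR adjusted p 0.0856). Itgam, the CR3 alpha chain, and Itgax, the CR4 alpha chain, had log2 fold changes of 0.57 (edgeR adjusted p 0.363) and 0.90 (0.217).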
